A study of Ipomoea batatas with 28 samples.

Results

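The first visible thickening of sweet potato (Ipomoea batatas) roots lies here between fibrous roots and pencil roots of 3.5 mm. The 200 transcripts described here had the largest of 5 compared changes at this step. They were selected on the measured values themselves, from the 99697 rows of the deposited table of TPM (a transcript's abundance per unit of its length, scaled so that every library has the same total). Each row is called an ID. Of these, 75757 had at least 1 TPM in at least 4 libraries, and values were taken as log2(TPM + 1) and averaged per stage. F is the mean of the S4 and S8 stage means, so a change between S4 and S8 did not enter the rule. An ID qualified when its change from F to S10 was positive and made up at least 50% of the summed size of the 5 changes F to S10, S10 to S12, S12 to S14, S14 to S16 and S16 to S20. This held for 3709 IDs, and the 200 with the largest change from F to S10 are the members. Since the rule used all stage means, the levels of the members by stage are given below as a description. Counts of calls from a fitted model, for S10 against fibrous roots and S20 against S10, are also descriptions. They are set beside the shares of all IDs.

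Wild type roots were sampled at 7 stages with 4 biological replicates each, 28 libraries in all, always from a middle section of the root. Per the labels, S4 (1.5 mm) and S8 (2 mm) are fibrous roots, S10 (3.5 mm) and S12 (5 mm) pencil roots. Storage roots are the 10 mm stage S14, the 15 mm stage S16 and the 25 mm stage S20. No treatment or altered genotype is involved, the cultivar is not given in the sources used here, and each library holds all cell types of a root segment. The replicate numbers used below are those in the sample descriptions, which run up to 5 and skip 1 number in each stage.

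Storage roots of sweet potato form from thin roots when a vascular cambium and additional cambia around the xylem divide and produce starch-storing parenchyma. Roots that stay thin instead lignify their central stele. The pencil root is the intermediate form, already thicker than a fibrous root but without the bulk of a storage root. Gene families known for a part in this change include KNOX and NAC transcription factors, cytokinin response genes, expansins that loosen cell walls, enzymes of starch synthesis, and the storage protein sporamin.

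None of the IDs could be tied to these families. Among the IDs, 0 matched the 175826 rows of the reference table of Ipomoea batatas genes, so the members carry no gene name, no sequence and no cell type marker here, and the labelled tissue could not be checked against markers. The members are therefore described by their values, their loci and their numbering. The number of reads behind a TPM value is unknown, and the error of each value is the spread between replicates. In whole-root libraries fewer cells of a type and less RNA per cell cannot be told apart. The median ID was higher at S10 than in fibrous roots by 0.15 on the log2 scale in the deposited TPM, against -0.02 when libraries were scaled by median of ratios and 0.02 under quantile normalization.

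The members' changes from F to S10 ran from 1.68 to 3.84 on the log2 scale, with a median of 2.02. The first ID outside the list had a change of 1.677, against 1.681 for the last one inside. In all, 757 IDs had a change as large as the last member, and 557 of them were left out because later changes were too large, with shares of up to 49.8%. The members' own shares ran from 50.1% to 83.9% with a median of 56.7%. In the fit to all IDs 184 of the 200 members were called higher at S10 (limma, Benjamini-Hochberg adjusted p under 0.05 and a log2 difference of at least 1), where 3.82% of all IDs were. This count restates the choice of members.

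Most members were weakly expressed before thickening and moderately expressed after it. Their mean in the 8 fibrous libraries had a median of 2.92 TPM over members and ran from 0 to 45.8 TPM, and at S10 the median was 15.95 TPM, from 3.37 to 447 TPM. At S10 13 members had a mean of 100 TPM or more, 120 of 10 to 100 TPM and 67 of less than 10 TPM. The 10 most abundant held 30.8% of the members' summed TPM at S10. Few members were off before S10. Only 1 was listed at 0 in all 8 fibrous libraries, 77 were listed at 0 in at least 1 of them, and 67 had at least 1 TPM in every fibrous library. Since the depth is unknown, a 0 is no proof of absence.

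On the log2(TPM + 1) scale the median change was similar at low and high starting levels, which the choice by this same change makes likely. The 35 members with a fibrous mean under 1 TPM had a median change of 2.08 on the log2 scale, the 98 with 1 to 5 TPM one of 1.97, the 52 with 5 to 20 TPM one of 2.08 and the 15 with 20 TPM or more one of 2.06. The cut at 200 members narrows these values, and the scale understates the change of the lowest IDs. In TPM the sizes were not alike. The median over members was 0.58 in fibrous roots and 5.76 at S10 for the lowest group, and 29.4 and 114.5 for the highest. For 126 members all 4 S10 libraries lay above all 8 fibrous libraries, a pattern found in 7.27% of all IDs, and this count again restates the choice. Such a separation was seen for 25 of the 35 members that started lowest, for 57 of the next 98, for 35 of the next 52 and for 9 of the 15 that started highest. The gap between the lowest S10 library and the highest fibrous library reached 2-fold or more (1 on the log2 scale) for 30 members and was at most 2.43.

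Among the 87 members with a mean of at least 10 TPM at S10 and no overlap, 4 are shown by ID: the one with the largest change, the most abundant one at S10 after it, and the 2 with the lowest S20 level relative to S10. G12881_TU21111 had the largest change. In S4 replicates 1, 2, 4 and 5 it stood at 47.2, 2.79, 2.35 and 81.2 TPM, and in S8 replicates 2, 3, 4 and 5 at 83.2, 4.23, 39.2 and 30.8 TPM. Fibrous roots of the same diameter thus differed by more than 10-fold. In S10 replicates 1, 2, 3 and 5 it held 277, 480, 195 and 269 TPM, all above the fibrous libraries. Stage means went on upwards, with an S12 mean of 452 ± 181 TPM and an S14 mean of 1127 ± 443 TPM. They stood at 573 ± 161 TPM in S16 roots and 487 ± 213 TPM in S20 roots (SD, n = 4 each). Its log2 difference between S10 and fibrous roots was 3.84 (SE 0.70), and its fibrous mean was 36.4 ± 33.1 TPM (SD, n = 8).

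MSTRG.71660, the next in abundance at S10, followed the first ID library by library. Its values were 41.5, 2.52, 2.62 and 63.7 TPM in S4 replicates 1, 2, 4 and 5, and 66.4, 3.43, 30.7 and 24.5 TPM in S8 replicates 2, 3, 4 and 5. At S10 it held 246, 396, 137 and 227 TPM in replicates 1, 2, 3 and 5, so the same S10 library was highest for both. Its S12 mean was 361 ± 109 TPM and its S14 mean, again the highest, 763 ± 265 TPM. S16 roots had 469.7 ± 78.7 TPM and S20 roots 399 ± 165 TPM (SD, n = 4 each). The ratio of G12881_TU21111 to MSTRG.71660 lay between 0.897 and 1.52 in all 28 libraries, with a median of 1.24, although the first ran from 2.35 to 1666 TPM and the other from 2.52 to 1096 TPM. After removal of the stage means their log2 values had a correlation of 0.995 over the 28 libraries, given as a description. Whether the pair are separate genes, or copies or parts of 1 gene between which reads were divided, was not tested.

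**Figure D1:**
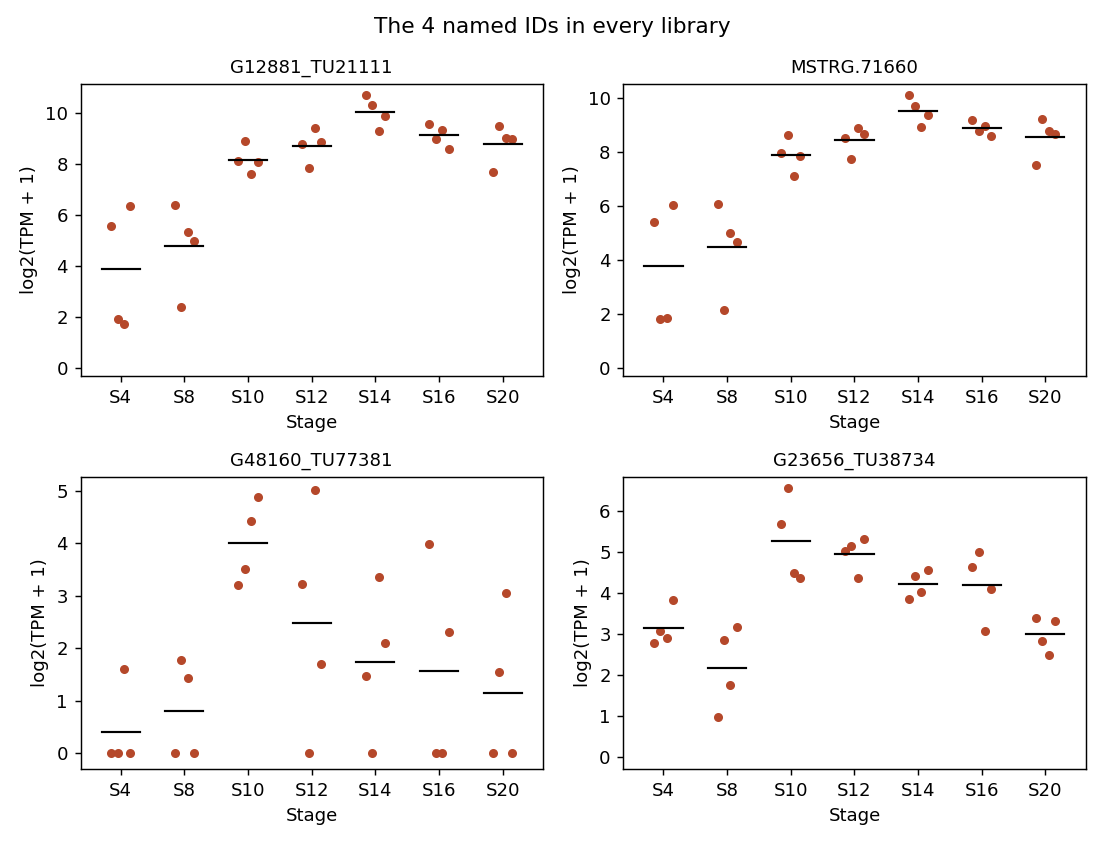
log2(TPM + 1) of the 4 IDs shown by name in each of the 28 libraries, by stage. Points are libraries and black lines are stage means (n = 4). The upper pair stays high after S10 and has the same scatter among fibrous libraries, while the lower pair is highest at S10 and stands lowest after it at S20.

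G48160_TU77381 was on average highest at S10 and lower before and after. It was listed at 0, 0, 2.04 and 0 TPM in S4 replicates 1, 2, 4 and 5 and at 0, 2.44, 1.72 and 0 TPM in S8 replicates 2, 3, 4 and 5. In S10 replicates 1, 2, 3 and 5 it stood at 8.18, 10.3, 20.4 and 28.4 TPM. At S12 the replicates were split, with 8.33, 0, 31.3 and 2.25 TPM in replicates 1, 2, 4 and 5. In the storage roots it ran from 0 to 9.30 TPM at S14, from 0 to 14.7 at S16 and from 0 to 7.29 at S20, with at least 1 library listed at 0 in each stage. S10 was thus the only stage after S8 without a zero. The log2 difference between S10 and fibrous roots was 3.40 (SE 0.83), and it depended strongly on the pseudocount, with 5.57 at 0.1 TPM and 1.84 at 5 TPM.

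G23656_TU38734 also had its highest stage mean at S10, from where the stage means were lower step by step except between S14 and S16. Its values were 5.91, 7.46, 6.42 and 13.3 TPM in S4 replicates 1, 2, 4 and 5 and 0.950, 6.19, 2.36 and 8.0 TPM in S8 replicates 2, 3, 4 and 5. At S10 they were 50.6, 93.0, 21.3 and 19.5 TPM in replicates 1, 2, 3 and 5, so that even the lowest S10 library exceeded all fibrous libraries. In the thicker roots the mean was 31.0 ± 8.20 TPM (S12), 17.9 ± 4.20 TPM (S14), 19.6 ± 10.1 TPM (S16) and 7.29 ± 2.32 TPM (S20; SD, n = 4 each), the last being close to the fibrous mean of 6.32 ± 3.73 (SD, n = 8). The only other ID of its locus was no member, because its later changes were too large. It had 4.90 ± 3.47 TPM in fibrous roots (SD, n = 8), 47.0 ± 22.2 at S10, 58.6 ± 24.5 at S12 and 18.9 ± 6.44 at S20 (SD, n = 4 each), so both IDs of the locus were high in the pencil roots.

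Taken as a sum, the members filled a small part of each library. They held 0.127% ± 0.0319 of the TPM in fibrous libraries (SD, n = 8), and 0.638% ± 0.207 at S10 (SD, n = 4). In S12 roots they held 0.912% ± 0.171, in S14 roots 0.966% ± 0.0779, in S16 roots 0.981% ± 0.310 and in S20 roots 0.828% ± 0.0515 (SD, n = 4 each). The highest fibrous library, S4 replicate 5, stood at 0.180%, and the lowest S10 library, replicate 3, at 0.443%. The sum therefore separated every fibrous library from every later one, which the choice of members makes likely. Between 119 and 153 of the 200 members had at least 1 TPM in a fibrous library, against 198 to 200 in the S10 libraries and 188 to 200 in the thicker roots.

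**Figure D2:**
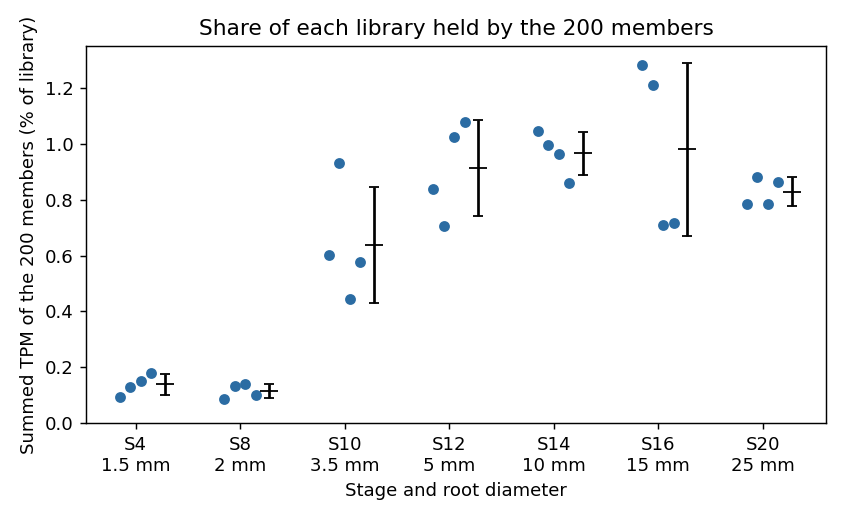
Summed TPM of the 200 members as a percentage of each library, by stage and root diameter. Points are libraries, and the bar beside them is the mean ± SD (n = 4). The S4 and S8 libraries lie between 0.0877% and 0.180%, the S10 libraries between 0.443% and 0.931%, and the S16 libraries fall into a high and a low pair.

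After S10 the members as a group stayed near the level they had reached. With F set to 0% and S10 to 100% for each member, the median stood at 114% in S12 roots, 111% in S14 roots, 109.6% in S16 roots and 95.4% in S20 roots. The upper and lower quartiles were 130% and 100.5% at S12, 134.7% and 89.3% at S14, and 129.6% and 86.3% at S16. At S20 they were 119% and 63.2%. The members' levels thus spread apart already at S14 and were widest apart at S20. These values are from the deposited TPM. The median at S20 was 86.9% when libraries were scaled by median of ratios and 94.8% under quantile normalization. The rule bounds the summed later changes by the first one but sets no direction for them. For 28 members S10 had the highest stage mean, for 70 it was S12, for 42 S14, for 37 S16 and for 23 S20. It was lowest at S4 for 76 and at S8 for 124.

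**Figure D3:**
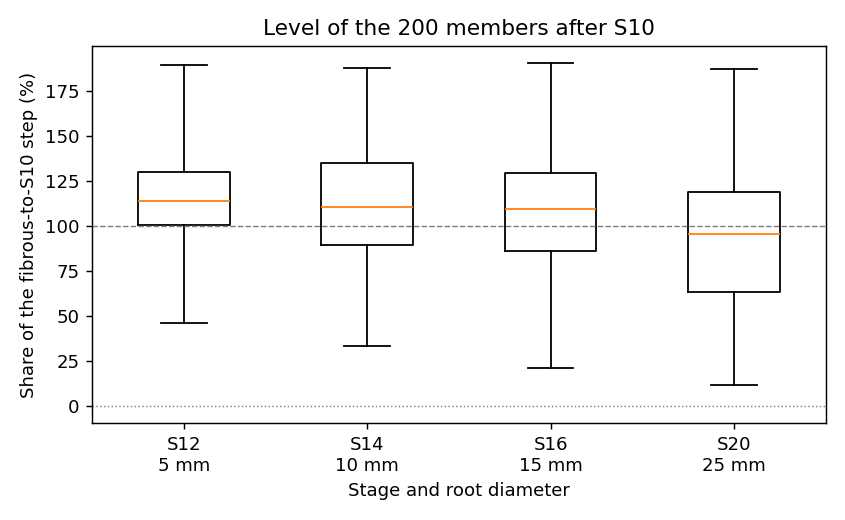
Level of the 200 members at the stages after S10, as a percentage of each member's change from fibrous roots (0%, dotted line) to S10 (100%, dashed line). Boxes show quartiles and the median, and whiskers reach the lowest and highest member. The median stays between 95.4% and 114%, and the box is widest at S20.

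By S20, 43 members lay above their S10 level by at least 25% of their first change, 89 lay within 25% of that level, 61 retained 25 to 75% of the change and 7 less than 25%. For the 43, grouped by their high S20 level, the median over members was 16.7 TPM in S10 roots, 23.3 TPM in S12 roots, 28.6 TPM in S14 roots, 40.6 TPM in S16 roots and 41.7 TPM in S20 roots. The medians of the 61 were 12.3 TPM in S10 and 13.3 TPM in S12 roots, then 11.1 TPM in S14, 9.92 TPM in S16 and 6.06 TPM in S20 roots. The 7 began at medians of 5.97 TPM (S4) and 4.38 TPM (S8), reached 22.6 TPM in S10 and 24.1 TPM in S12 roots, and stood at 17.9 TPM in S14, 14.1 TPM in S16 and 7.29 TPM in S20 roots. Single members of a group need not follow its medians. The 2 IDs shown above that were low again at S20 belong to these 7. In the fit to all IDs 22 members were called higher at S20 than at S10 and 18 lower (limma), which is 11.0% and 9.0% of them, where 20.3% and 11.1% of all IDs were. The rule holds these counts down, so nothing is read from the comparison. The split depended on the scaling and on single libraries, with 16 higher and 33 lower calls when scaled by median of ratios and 22 higher and 30 lower under quantile normalization. The shares of all IDs called under these scalings were not computed, so the shift cannot be taken as particular to the members. Lower calls numbered 11 without S10 replicate 5 and 10 without S20 replicate 1, and higher calls 14 without S10 replicate 3.

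The difference between S4 and S8 was not used by the rule, since only their mean entered it. There 0 members were called in either direction (limma, all IDs adjusted together), where 0.00132% of all IDs were called higher and 0% lower at S8. The lowest adjusted p among members was 0.0626 (limma), for a member with a log2 difference of 2.08 and another with -1.68. At an unadjusted p under 0.05, 16 members were lower at S8 and 4 higher (limma), which is 8.0% and 2.0% of them, against 1.96% and 2.04% of all IDs. The median difference of S8 minus S4 was -0.18 on the log2 scale for the members and 0.03 for all IDs. Of the 200 members 75 were higher at S8, against 54.1% of all IDs. The stages overlapped, since the members' median log2 level ran from 1.34 to 2.39 in the S4 libraries and from 1.37 to 2.10 in the S8 libraries. With libraries scaled by median of ratios 74 members were higher at S8, and under quantile normalization 72. In the same measure the medians of 3 lists built by the same rule were 0.00 for the 200 IDs with the largest dominant step down from F to S10, 0.00 for those with a dominant step up from S10 to S12 and 0.11 for those with a dominant step up from S12 to S14. The members share libraries and move together, as described next, so these counts do not stand for 200 separate observations. The median member thus showed no rise ahead of S10 between the fibrous stages. For single members the calls cannot decide this, since only 1 of all 75757 IDs was called higher at S8. The largest difference of a member was 2.62 (limma adjusted p 0.351), against 2.34 from F to S10 for the same member. The member with 2.08 had a change of 2.03 from F to S10.

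Within a stage, libraries differed in the level of the members as a group. At S16 the summed members held 12839 and 12111 TPM in replicates 1 and 2 but 7091 and 7180 TPM in replicates 3 and 4. In replicate 1 of S16 167 of 200 members lay above their stage mean, in replicate 2 151, in replicate 3 37 and in replicate 4 61. At S10 replicate 2 had the highest sum, 9307 TPM, and replicate 3 the lowest, 4430 TPM, with 6015 and 5755 TPM in replicates 1 and 5. Replicate 2 was the highest S10 library for 111 members and replicate 3 the lowest for 101, and the members' S10 libraries spanned a median range of 1.26 on the log2 scale. Among the fibrous libraries the sum ran from 877 TPM in S8 replicate 2 and 925 TPM in S4 replicate 1 to 1804 TPM in S4 replicate 5. The other fibrous libraries held 1310 and 1521 TPM at S4 and 1342, 1396 and 1013 TPM at S8. At S12 the sums were 8400, 7061, 10230.1 and 10797 TPM, at S14 10451, 9941, 9643 and 8603 TPM, and at S20 7847, 8800 and 7828 TPM with 8644 TPM in the last library.

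The median of all IDs moved far less, but lists built by the same rule moved about as far. The median deviation of the members from their stage mean was 0.46 and 0.39 on the log2 scale in S16 replicates 1 and 2 and -0.46 and -0.25 in replicates 3 and 4, where the median deviation of all IDs lay between -0.02 and 0.03. In S10 replicates 2 and 3 the members deviated by 0.33 and -0.28 and all IDs by 0.01 and -0.04. S4 replicate 1, the library farthest from its stage mean over all IDs (0.75 per ID, against 0.37 to 0.59 in the others), had the members at -0.39 and all IDs at -0.12. The list with a dominant step up from S10 to S12 stood at 0.36 and -0.35 in S16 replicates 1 and 3 and at 0.29 and -0.31 in S10 replicates 2 and 3. The list with a step up from S12 to S14 reached -0.46 in S14 replicate 4. The list with a step down at S10 reached 0.48 in S4 replicate 1 and -0.48 in S8 replicate 4, so movement of a whole list within a stage was not particular to the members. The mean correlation between pairs of members, after removal of the stage means and over the 28 libraries, was 0.153, against 0.0251 for all IDs. It was 0.122 for the list with a dominant step down at S10, 0.0883 for that with a step up at S12 and 0.0922 for that with a step up at S14. Of the 19900 pairs of members 70.5% had a positive correlation. These correlations are descriptions, since all pairs share the same libraries. What distinguishes the high from the low libraries of a stage was not tested.

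**Figure D4:**
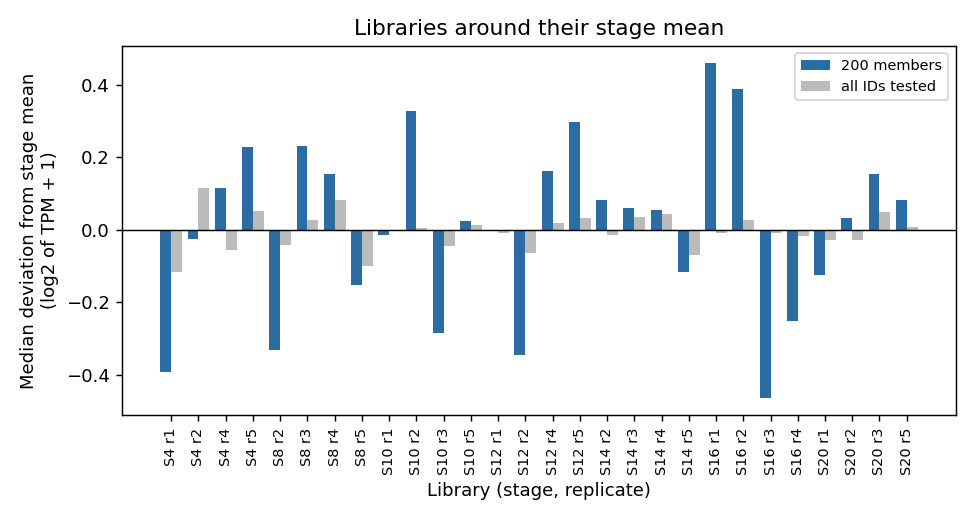
Median deviation from the stage mean, in log2(TPM + 1), of the 200 members (blue) and of all 75757 IDs tested (grey) in each library, where r is the replicate number. The members reach 0.46 in S16 replicate 1 and -0.46 in S16 replicate 3, while all IDs stay between -0.12 and 0.11.

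The members came from many loci. The IDs of 170 combined a G with a TU number, and those of 30 began with MSTRG (15.0%, against 24.6% of all IDs tested). The 170 belonged to 159 G numbers, called loci here, of which 9 held 2 members and 1 held 3. More than 1 row was listed for 73 of these loci (45.9%), against 38.2% of all loci with a tested row. Of the 159 loci 14 lay within 5 numbers of another. The lists with a dominant step down at S10, up at S12 and up at S14 had 15 of 135, 8 of 150 and 12 of 149 such loci. Whether the numbering follows the genome is not given in the sources used here. Of the 26 pairs of members with a correlation of 0.9 or more around the stage means, which held 40 members, 2 pairs were of 1 locus.

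The other IDs of the members' loci tended to be higher at S10 too. They are the rows of these loci that did not meet the rule or its cut, so their values at these stages also took part in setting them apart, and the 7 loci with all rows among the members drop out. Within that limit they were counted in the fit to all IDs. There were 135 other IDs in 66 loci, of which 115 passed the filter. Of these 31 were called higher at S10 than in fibrous roots (limma), or 27.0%, against 3.82% of all IDs, and 5 were called lower, or 4.35%, against 2.16%. The median log2 difference was 0.66 among the 115 and 0.15 among all IDs, and 92 of the 115 (80.0%) were higher at S10, against 62.1% of all IDs. The 31 came from 26 loci and had a median difference of 1.54, and 11 of the 115 had a difference as large as the members' smallest. The count of higher calls was 15 with a pseudocount of 5 TPM. When libraries were scaled by median of ratios 23 were called higher and 8 lower, with a median difference of 0.52 against -0.02 for all IDs, and under quantile normalization 25 and 4, with 0.55 against 0.02. The shares of all IDs called under these scalings were not computed, so these counts of calls have no background. The other IDs had a median level of 2.74 on the log2(TPM + 1) scale, above the 1.86 of all IDs, and IDs of 1 locus may share reads, so the background is not matched in these respects.

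The 5 lower calls came from 3 loci, and 3 of them from a single locus with 14 rows. Its member held 2.83 TPM in fibrous roots and 43.0 TPM at S10 on average, while the other 13 rows together held 1400 and 599 TPM, so the member's part of the locus was 0.202% and 6.70%. No locus had other IDs called in both directions. Summed over the other rows, 54 of the 66 loci were higher at S10 and 11 lower. In 3 of these loci the other rows were lower at S10 by at least 50% of the amount by which the members were higher. They include the locus with 14 rows and G23591. In G23591 the other rows held 235 TPM in fibrous roots and 56.2 TPM at S10, and the member 0.78 and 5.81 TPM. Conversely, in 15 of the 66 loci the other rows were higher at S10 by more TPM than the members were. The members' part of their locus had a median of 45.1% in fibrous roots and 63.9% at S10 and was larger at S10 in 54 of the 66 loci, which follows in part from the choice of members by their rise.

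**Figure D5:**
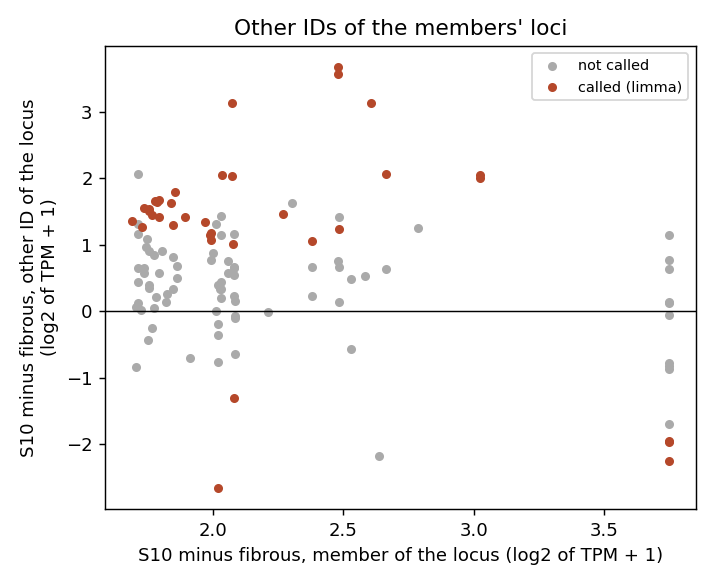
Difference between S10 and fibrous roots, in log2(TPM + 1), of the 115 other IDs of the members' loci (vertical axis) against that of the member of the same locus, or of its largest where it had several (horizontal axis). Red points were called by limma: 31 lie above 0 and 5 below, 3 of these at the far right in 1 locus.

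Because members were chosen for a high S10 level, the list was also formed without each S10 library in turn and then read in the library left out. The fibrous and later libraries still took part in the choice, so this check is partial. Without S10 replicate 1 the chosen 200 had a median difference from F of 2.07 in the remaining S10 libraries and 1.91 in the left-out one. Without replicate 2 the values were 2.00 and 1.37, without replicate 3 2.39 and 1.50, and without replicate 5 2.11 and 1.91. All IDs had medians of 0.07 to 0.17 in the left-out libraries. Of each 200, 178 to 193 were above F in the left-out library and 116 to 180 were so by at least 2-fold. The shares of all IDs in single left-out libraries were not computed. With the 4 S10 libraries together, 62.1% of all IDs were higher at S10 than at F. The same fibrous libraries set F in the choice and in the reading, which makes values above F likely. The left-out medians were smaller than those of the remaining S10 libraries in each of the 4 cases. The new lists shared 171, 119, 119 and 148 IDs with the members in the same order of replicates.

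The first thickening step was the one that most IDs met by this rule in the deposited TPM, with 3709 higher at S10, but this order depended on the scaling. The same share of 50% was met by 1151 IDs that were lower at S10 than at F, by 930 that were higher at S12 than at S10, and by 1893, 707 and 1701 that were higher at the end of the next 3 steps. Scaled by median of ratios, 1906 IDs were higher at S10 by the rule and 2516 lower, and under quantile normalization 2150 were higher and 1803 lower. The step up from S16 to S20 was then met by more IDs, 2439 and 2327, than the step up to S10. Of the 200 members 168 and 151 were chosen again under these scalings, and 175 and 176 were called higher at S10 (limma). The calls restate the choice of members, and the shares of all IDs called under these scalings were not computed.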

How the data were processed

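Messenger RNA of sweet potato roots was measured in 28 libraries, 4 biological replicates at each of 7 stages, grouped by the sample descriptions. The authors deposited 1 table of TPM, in which each column summed to between 999998 and 1000003. TopHat2 2.0.0 and RSEM 1.3.1 appear in the submitters' processing notes. Their roles, the genome build and the annotation are not given in the sources used here. TPM keeps no read numbers, so the depth is unknown and no counting interval is given. A value is a share of its library, so a few very abundant transcripts can shift the rest.

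The filter of at least 1 TPM in 4 or more libraries kept 75757 IDs, which were analysed as log2(TPM + 1). The model, with 1 mean per stage over all libraries, was fitted with limma 3.58.1 (R 4.3.3), with a trended prior and Benjamini-Hochberg adjustment over all IDs. Calls needed an adjusted p under 0.05 and a log2 difference of at least 1. Folds are on that scale, which understates changes of low IDs. Python 3.11.15, NumPy 2.4.6 and pandas 2.3.3 gave the descriptions and Matplotlib 3.10.9 the plots. The steps were tested on simulated data. No pair of libraries held identical values.

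The members, lists and tests were chosen with earlier results of these data known. At most 4 IDs were named, since none has a gene name: among members with at least 10 TPM at S10 and no overlap with fibrous libraries, that with the largest change to S10, that with the highest S10 mean, and the 2 with the lowest S20 level relative to S10, an ID already taken being replaced by the next. The formation of the list without each S10 library, and its reading there, was added after the data were seen. The other alternatives are listed in the closing part.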

Additional observations from a re-analysis of the deposited data

Results flagged for a closer look

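In S4 replicate 4, G48160_TU77381 stood at 2.04 TPM while the other 3 S4 libraries were listed at 0. Beside 3 values tied at 0 any value above 0 is flagged, so the flag does not show that this library lay far from them. The value remained below every S10 library (8.18 TPM or more). This was the single case in 48 groups of libraries examined for the 4 named IDs and for the members' share and median level. Chance alone flags about 1 group in 20, a rate that does not hold for values tied at 0.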

How the results depend on the processing

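Of the 200 members, 86 were chosen again with a pseudocount of 0.1 TPM, 90 with 5 TPM, 100 with a required share of 40% and 69 with 60%, and 135 with S8 alone as the fibrous level. Leaving out 1 library kept 119 to 186 of them, the lowest without S10 replicate 2 or 3. With fixed members, the count called between S10 and fibrous roots was 134 to 189 over the alternatives, 162 to 187 of it on leaving out 1 library. The count without overlap was 126 to 147 on leaving out 1 library of S4, S8 or S10. Dropping a library cannot lower that count, so its range is no test of it. The scaling did lower it, from 126 to 116 (quantile normalization) and to 109 (median-of-ratios scaling). Other IDs of the loci were called higher in 15 cases with a pseudocount of 5 TPM and in 27 to 35 without 1 library. They were called lower in 8 with median-of-ratios scaling and in 3 to 6 without 1 library, with 3 without S10 replicate 2 or 5. Between S4 and S8, 2 members were called with a pseudocount of 0.1 TPM, 1 each with median-of-ratios scaling and quantile normalization, and 0 to 2 without 1 library, with 2 without S4 replicate 1 or 5. Members called lower at S20 than at S10 numbered 10 and 11 with pseudocounts of 0.1 and 5 TPM, 33 with median-of-ratios scaling, 30 with quantile normalization, 31 with library weights and 10 to 24 without 1 library. Those called higher numbered 14 to 25 without 1 library. The median difference of lists read in the left-out S10 library was 1.37 to 1.91. The 4 named IDs kept their direction and call at S10 in each of the 38 alternatives run, which their choice made likely, with log2 differences of 3.42 to 4.25, 3.31 to 4.13, 1.84 to 5.57 and 2.01 to 2.91 in the order of the text. Shares of all IDs called were not computed under the alternatives, so these counts have no background. The causes were not tested.

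With the replicate number as a block (replicate block), 186 members were called between S10 and fibrous roots with the number of the description and 185 with that of the title, against 184 without. The numbers were not taken to pair the libraries. In each of 4 pairs of stages examined, under either numbering, the lowest correlation of same-numbered libraries was at most 0.0371. A lowest value rests on 1 pair of libraries, so it cannot decide whether the libraries are paired. Between S4 and S8 the 3 same-numbered pairs of the description had correlations of 0.0272 to 0.192, against -0.374 to 0.331 for the others, and under the title's numbers the highest, 0.331, was of a same-numbered pair. Of the S4 libraries, 1 (description) and 2 (title) correlated best with their own number at S8, and of the 4 S10 libraries 3 did so at S20 under either numbering. The same-numbered pairs of S10 and S20 had correlations of only -0.0195 to 0.0598, against -0.102 to 0.113 for the others. These values leave undecided whether the libraries are paired.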
